A study of Mus musculus with 32 samples.

Results

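The nuclear-encoded genes of the mitochondrial respiratory chain and ATP synthase were followed in mouse intestinal stem cells. They were taken by gene symbol: names that start with Nduf, Uqcr, Cox4i, Cox5, Cox6, Cox7, Cox8 or Atp5, and Sdha, Sdhb, Sdhc, Sdhd, Cyc1 and Cycs, if annotated protein-coding and at a mean of at least 10 CPM (counts per 1000000 counts) over the 32 libraries. Of 54418 gene identifiers in the table, 109 carried such a symbol, 96 of these were protein-coding and 88 reached 10 CPM. These 88 are 36 genes of complex I, 4 of complex II, 9 of complex III, 13 of complex IV (Ndufa4 among them), 16 of ATP synthase, cytochrome c (Cycs) and 9 assembly or associated factors (Ndufaf1, Ndufaf2, Ndufaf3, Ndufaf4, Ndufaf5, Ndufaf7, Ndufaf8, Cox7a2l and Atp5s). All 88 were among the 5872 genes that were tested. The mean level chose the members, so it is given here only as a description. Just above the limit stood Cox6b2 (10.3 CPM), Atp5s (28.5 CPM) and Cox7a1 (37.7 CPM), and just below it Ndufaf6 (9.38 CPM), then Cox4i2 (0.0491 CPM) and a second Atp5o identifier (0.0457 CPM).

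RNA came from epithelial crypt cells sorted for high GFP, and polyadenylated RNA was counted near the 3' end of transcripts (3' digital gene expression). The 32 libraries form 8 groups of 4. Mice labelled wild type (WT), Ppard-fl/fl (PparD), Ppara-null (PparA) or both Ppard-fl/fl and Ppara-null (PparDA) were fed either a control or a high-fat diet, and every library carries the strain label C57BL6. The GFP source and the Cre driver or other means of recombining the floxed allele were given in no source used here. Neither were the age of the mice, the length of the diet and whether the 4 libraries of a group came from 4 animals. By the sex markers given further on, each group holds samples of both sexes, so no group came from a single animal. Each p measures the spread between these samples, which may be partly technical. In the columns the libraries are numbered from 1 to 32. WT control is 1, 9, 17 and 26, and WT high-fat 2, 10, 18 and 25. PparD control is 3, 11, 19 and 27, PparD high-fat 4, 12, 20 and 28, PparA control 5, 13, 21 and 29, PparA high-fat 6, 14, 22 and 30, PparDA control 7, 15, 23 and 31, and PparDA high-fat 8, 16, 24 and 32. Below, the values of a group are given in that order.

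As background, the respiratory chain of the inner mitochondrial membrane passes electrons from NADH (through complex I) and from succinate (through complex II) to ubiquinone, then through complex III, cytochrome c and complex IV to oxygen. Complexes I, III and IV pump protons, and ATP synthase, also called complex V, uses the proton gradient to make ATP. Most subunits are encoded in the nucleus and a few in mitochondrial DNA, complex II being wholly nuclear. Fatty acid oxidation feeds electrons into the chain as NADH and through electron transfer flavoprotein, and Ppara and Ppard are nuclear receptors that fatty acids activate. Several complex IV subunits exist as a common form and a form best known from muscle or testis.

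The promoters of many of these genes are known to hold sites for NRF1, a factor that drives nuclear genes for mitochondria, and the following stretches show the letters of that site in 4 genes. Windows from 250 bases before to 50 bases after the gene start were taken from RefSeq (GRCm38.p6), where 73 of the 88 genes had one. In 55 of the 73 windows the bases after the start were found early in a coding transcript of the gene. In the others they were not, so those windows may lie off the start in use. The letters CGCATGCG, which are the same on both strands, stood in 11 of 73 windows (15.1%), against 4.91% of 4441 windows of tested protein-coding genes and 2.66% of 16457 windows of all protein-coding genes. The 11 genes are Ndufa8 and Ndufa11 of complex I, Uqcrc1 and Uqcr11 of complex III, Cox6a1 of complex IV, Atp5g2, Atp5k and Atp5l of ATP synthase, Cycs, Ndufaf4 and Ndufaf5. Of these, 1 gene is printed from each of 3 complexes and cytochrome c, on the strand of the gene, with the motif in capitals.
Ndufa11, chr17:56717693-56717720, plus strand: ctgcactgcgCGCATGCGcgcacgcctt
Uqcrc1 (motif after the start), chr9:108936669-108936696, plus strand: ctccgctctgCGCATGCGcagcgcggct
Atp5g2, chr15:102671071-102671098, minus strand: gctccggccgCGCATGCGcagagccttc
Cycs, chr6:50566613-50566640, minus strand: catgctagctCGCATGCGcgcgcacaaa

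Other motifs were searched on both strands in the same windows. CCGGAAG, bound by ETS factors, stood in 23.3% of the members' windows and 23% of those of tested genes. AAGATGGC, bound by YY1, stood in 12.3% against 6.01%. Of the 9 genes holding it 7 are complex I subunits, which supply 32 of the 73 windows. AAGGTCA, bound by estrogen-related receptors, stood in 11% against 3.56%. Its 8 genes are Atp5e, Atp5g3, Atp5k and Atp5l of ATP synthase, Ndufb2, Ndufb4 and Ndufs5 of complex I, and Sdhd. Whether a motif favours a complex was not tested. The letters ACGTGAC, which hold neither the full cyclic AMP response element nor its TGACG core, stood in 1.37% against 5.74%. A match describes letters in the window and is not a measured binding site.

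Cox6a1 and Cox8a, subunits of complex IV, and Atp5d, the delta subunit of ATP synthase, rose and fell together across the libraries (values are given further on). The 180 bases before each RefSeq start are printed for comparison, with motif letters in capitals. For Atp5d that start lies inside the annotated gene, which begins at chr10:80138632, so its letters describe that window only. Cox6a1 holds the NRF1 motif and an ETS motif, Cox8a holds an ETS motif that runs past the start, so that only its first 5 letters are shown, and Atp5d holds none of the 5 motifs.
Cox6a1, chr5:115348959-115349138, minus strand: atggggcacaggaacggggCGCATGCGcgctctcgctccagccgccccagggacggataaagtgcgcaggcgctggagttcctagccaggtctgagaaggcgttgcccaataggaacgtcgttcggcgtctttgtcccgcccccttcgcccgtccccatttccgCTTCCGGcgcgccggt
Cox8a, chr19:7217617-7217796, minus strand: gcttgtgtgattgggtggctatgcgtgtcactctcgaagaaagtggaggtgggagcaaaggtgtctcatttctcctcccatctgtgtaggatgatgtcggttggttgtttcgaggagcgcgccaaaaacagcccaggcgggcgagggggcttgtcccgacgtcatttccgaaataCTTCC
Atp5d, chr10:80142095-80142274, plus strand: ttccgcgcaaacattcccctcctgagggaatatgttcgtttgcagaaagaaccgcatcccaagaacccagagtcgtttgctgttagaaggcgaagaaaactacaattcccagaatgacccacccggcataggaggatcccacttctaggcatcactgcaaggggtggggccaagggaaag

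Libraries held 612672 to 724155 counts. Ppara had 0 to 5 and Ppard 0 to 7 counts in a library, so the genotype labels could not be checked on them, and 3' reads outside a deleted part check nothing. Of 10 stem cell markers Olfm4 ranged from 7063 to 13052 CPM and Lgr5 from 28.1 to 64.4 CPM. Markers of other cells varied more: the sum of 10 Paneth cell markers ranged from 2058 to 42967 CPM, that of 10 enterocyte markers from 1108 to 4180 CPM, and that of 8 lymphocyte markers from 0 to 12.4 CPM. The library numbers form 4 runs of 8, each with every group once. Xist, an RNA of female cells, read 465.2 to 927.7 CPM in runs 1 and 3 and 0 to 9.7 CPM in the others. Ddx3y of the Y chromosome read 0 where Xist was high and 14.3 to 38.8 CPM in runs 2 and 4. By these markers each group holds female samples (runs 1 and 3) and male samples (runs 2 and 4). Values within pairs of runs therefore stand beside the calls. Libraries 23 and 31 (both PparDA control) and 27 (PparD control) had the lowest summed level of the 88 genes, 52721, 54030 and 53400 CPM against 56895 to 66527 CPM in the other 29, and results that rest on them are given with and without them.

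The 88 genes took 5.37 to 6.77% of the counts of a library. Mean levels ran from 10.3 CPM for Cox6b2 to 2859 CPM for Ndufa4, a small complex IV subunit first assigned to complex I. Reads were counted at the 3' end without a length scale, so the levels below describe the range in each complex and do not rank the genes by transcript number. Complex I genes reached 1413 CPM for the accessory subunit Ndufa3. The 4 subunits of complex II (succinate dehydrogenase) stood between 325 and 938 CPM. Complex III genes ran from 79.8 to 2362 CPM, the last being Uqcrq, a small subunit at the ubiquinone-binding end. ATP synthase genes ran from 232 to 2674 CPM, and the assembly or associated factors from 28.5 to 441 CPM. Cox7a2l, a factor for assembling supercomplexes, is one of the latter.

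Forms of subunits best known from other tissues were at or near 0. Cox8b and Cox7b2 had 0 counts in the 32 libraries together, as had Cox8c and Ndufa4l2, while Cox4i2 and the muscle form Cox6a2 had 1 count each. Cox6b2, best known from testis, and Cox7a1, best known from heart and skeletal muscle, were the exceptions with 223 and 807 counts in all. A floor of 0 counts limits reads and not whether a cell expresses a gene.

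Most members hardly differed between groups. The ratio of the highest to the lowest group mean had a median of 1.23 over the 88 genes and was under 1.2 for 37 of them. It was lowest for Cox4i1, the common form of a core-associated complex IV subunit, with 1533 CPM in PparD high-fat and 1430 CPM in PparD control as group means (ratio 1.07). This ratio was over 1.5 for 8 genes and over 2 for 4: Cox6b2 (2.66), Cox8a (2.45), Atp5d (2.43) and Cox6a1 (2.03). Cox6b2 had group means of only 5.72 to 15.2 CPM and a coefficient of variation of up to 92.7% within a group. It reached the 10 CPM limit through the groups where it was high, so its ratio is tied to how it was chosen. Cox7a1 (1.99), Cyc1 (1.58), the cytochrome c1 of complex III, and Ndufb2 (1.55), an accessory subunit of complex I, were among the other 4. The spread within a group was small too, with a median coefficient of variation of 9.97%.

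Summed over all members, PparD on the high-fat diet was the highest group mean and PparDA on the control diet the lowest. The sum was 61827 ± 1399 CPM (SD, n = 4) in WT control and 63603 ± 2154 CPM in WT high-fat, and 60953 ± 5194 CPM and 65334 ± 953 CPM in PparD. It was 62523 ± 2650 CPM in PparA control and 59776 ± 2884 CPM in PparA high-fat, and 58804 ± 6294 CPM and 63810 ± 2356 CPM in PparDA. With library totals PparA high-fat was the lowest (58530 CPM, PparDA control 59357 CPM), and WT control (64414 CPM) stood above WT high-fat (62906 CPM). The 4 values of PparDA control were 63993, 64471, 52721 and 54030 CPM, and those of PparDA high-fat 62893, 65796, 65652 and 60900 CPM. The first 2 control libraries lay inside the high-fat range and libraries 23 and 31 below it. In PparD control, library 27 stood at 53400 CPM and the other 3 at 61974 to 65087 CPM, against 64381 to 66527 CPM on the high-fat diet, so the ranges overlapped. Since these are bulk samples, fewer cells of a type and less RNA per cell cannot be told apart.

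**Figure D1:**
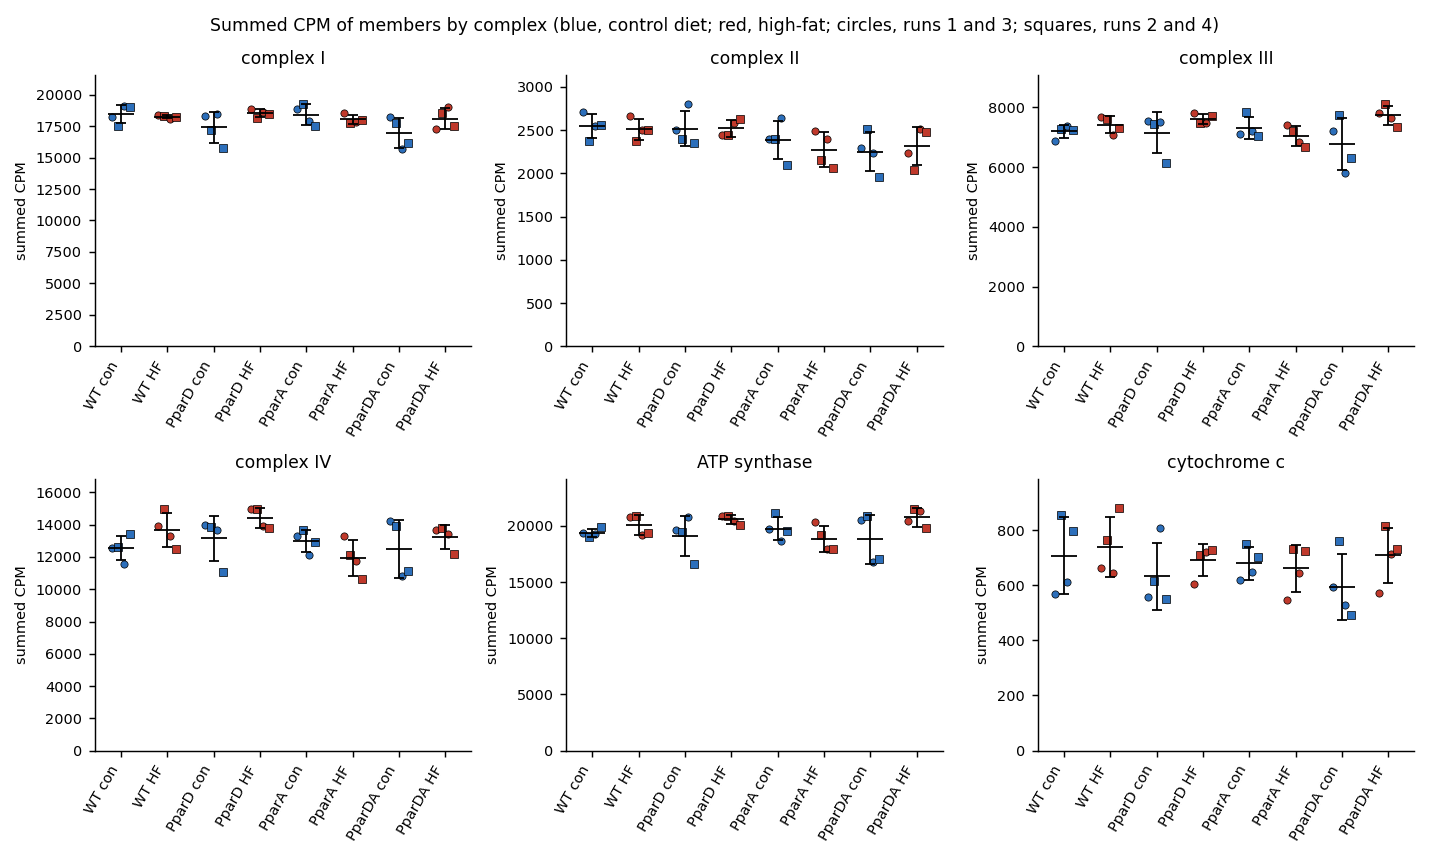
Summed CPM of the member genes of each complex (vertical axes, from 0) in each library by group, with the mean and SD of 4 libraries as bars; circles mark runs 1 and 3, squares runs 2 and 4, blue the control and red the high-fat diet. The lowest points of complexes I and III and of ATP synthase are libraries 23 (PparDA control) and 27 (PparD control).

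By complex, group means of complex I ran from 16949 ± 1196 CPM in PparDA control to 18541 ± 307 CPM in PparD high-fat, and those of ATP synthase from 18819 ± 2193 to 20777 ± 828 CPM, both in PparDA, on the control and the high-fat diet. Complex III likewise ran from 6772 ± 870 to 7737 ± 324 CPM in PparDA. Complex IV was lowest in PparA high-fat (11944 ± 1112 CPM) and highest in PparD high-fat (14403 ± 635 CPM). Complex II was lowest in PparDA control (2250 ± 225 CPM) and highest in WT control (2548 ± 136 CPM), and Cycs ran from 593 ± 118 CPM in PparDA control to 737 ± 109 CPM in WT high-fat. Libraries 23, 27 and 31 set much of the low end. Library 27 was the lowest of its group for 56 of 88 members, library 23 for 40 and library 31 for 34. Malat1, a nuclear RNA, stood at 2807 to 3662 CPM in these 3 and 1977 to 3974 CPM in the others, and the 13 mitochondrially encoded genes summed to 140222 to 154490 CPM in these 3 and 112455 to 158178 CPM in the others. The Paneth marker sum was 3756, 15833 and 40500 CPM in libraries 23, 27 and 31. The part of these values in the low sums was not tested.

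The high-fat diet moved no member past the threshold in any genotype. A gene is called here at an adjusted p under 0.05 (edgeR quasi-likelihood test, Benjamini-Hochberg over the 5872 genes tested). Of the 88 members, 0 were called in WT, where 0.102% of all tested genes were, and 0 in PparD (0.0851% of all), PparA (0.136%) and PparDA (0.0341%). Averaged over the 4 genotypes 0 were called again, against 0.324% of all genes. At an unadjusted p under 0.05 stood 6 members in WT, 2 in PparD, 5 in PparA, 12 in PparDA and 5 in the average. As shares, these were 6.82% of the members against 7.66% of all genes in WT, 2.27% against 4.99% in PparD, 5.68% against 5.79% in PparA, 13.6% against 8.79% in PparDA and 5.68% against 9.04% in the average. DESeq2 and limma also called 0 in these 5 comparisons. The diet effect averaged over genotypes was bounded closely: the interval of 2 SE lay within 1.5-fold in either direction for 87 of 88 members, and for 75 to 78 of 88 in a single genotype.

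The largest of these averaged effects in ATP synthase and complex I by p were small. Ndufb10, an accessory subunit of complex I, differed by 0.14 ± 0.05 (log2 fold change ± SE; adjusted p = 0.3), Atp5g2, a copy of the membrane ring subunit of ATP synthase, by 0.16 ± 0.05 (0.34) and Atp5mpl, a small associated subunit, by 0.14 ± 0.05 (0.36), all from edgeR. Cycs differed by 0.10 ± 0.07, with an interval from −0.05 to 0.25. In complex II the 4 differences ran from −0.03 to 0.03.

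The direction of the diet effect over the members depended on genotype, scaling and 3 libraries. Of the 88 members 56 were higher on the high-fat diet in WT (median log2 fold change 0.04), 80 in PparD (0.10), 23 in PparA (−0.06) and 68 in PparDA (0.12), where 48.6 to 49.7% of all tested genes were higher. With library totals in place of TMM factors the counts were 37 in WT (median −0.03), 78 in PparD, 10 in PparA and 52 in PparDA. Without libraries 23, 27 and 31 they were 62 in PparD (median 0.04) and 44 in PparDA (median −0.00). By complex, in WT, all 13 complex IV members were higher (median 0.18, and 9 of 13 with library totals) while 19 of 36 complex I members were (median 0.00). In PparA 3 of 13 complex IV members were higher (median −0.12) and 0 of 4 in complex II. These counts carry no test. The sum of Paneth cell markers had a median of 11422 CPM (4816 to 42967) in the 16 high-fat libraries. In the 16 control libraries it was 5096 CPM (2058 to 40500), so the ranges overlapped. Its group mean was higher on the high-fat diet in WT, PparD and PparA. In PparDA it was lower (16854 ± 16198 CPM control, 14561 ± 4109 CPM high-fat). The part of Paneth cells in the diet values was not tested.

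**Figure D2:**
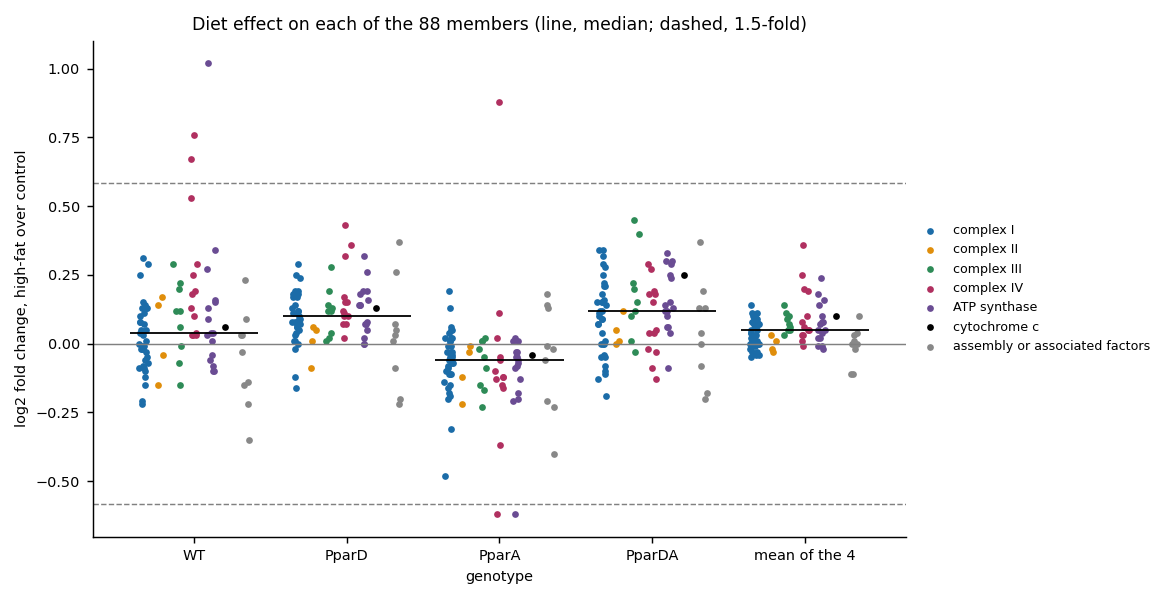
Log2 fold change on the high-fat over the control diet (vertical axis) for each of the 88 members in each genotype and averaged over the 4, coloured by complex, with the median as a line and 1.5-fold as dashed lines. Most points lie inside 1.5-fold. The points farthest out in WT are Atp5d (1.02), Cox8a (0.76) and Cox6a1 (0.67). In PparA the highest complex IV point is at 0.88, and Cox8a and Atp5d are at −0.62.

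Cox6a1, Cox8a and Atp5d stood out among single genes and varied in the same libraries. Their ratios of the highest to the lowest group mean were 2.03, 2.45 and 2.43, and only Cox6b2, at low counts near the 10 CPM limit, had a larger one (2.66). Cox6a1 and Cox8a encode accessory subunits of complex IV, and Atp5d a subunit of the rotor stalk of ATP synthase. In WT control, Cox6a1 stood at 215, 247, 192 and 289 CPM, and in WT high-fat at 323, 495, 364 and 321 CPM, without overlap. In PparA it stood at 189, 330, 227 and 377 CPM under control feeding and 247, 241, 199 and 179 CPM under high-fat feeding. The log2 diet effect was 0.67 ± 0.19 in WT (adjusted p = 0.33) and −0.37 ± 0.19 in PparA (0.87) by edgeR.

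Cox8a stood at 412, 592, 295 and 785 CPM in WT control and 671, 1445, 701 and 720 CPM in WT high-fat, the second of these libraries lying far above the rest. In PparA its levels were 551, 857, 532 and 1165 CPM under control feeding and 574, 610, 471 and 369 CPM under high-fat feeding. Atp5d was at 203, 272, 131 and 487 CPM in WT control and 447, 922, 409 and 446 CPM in WT high-fat. It was at 301, 434, 249 and 639 CPM in PparA control and 310, 320, 243 and 184 CPM in PparA high-fat. In WT the ranges of both genes overlapped through control library 26. Neither passed the test (Cox8a 0.76 ± 0.30, adjusted p = 0.56; Atp5d 1.02 ± 0.35, adjusted p = 0.52, edgeR). Without a filter on low counts edgeR called all 3 genes for the diet in WT. The share of all genes called in that fit is not given here, so these calls have no background.

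All 3 genes had their highest group mean in PparD high-fat and their lowest in PparA high-fat. The means there were 441 ± 39.9 and 217 ± 32.6 CPM for Cox6a1 (SD, n = 4), 1242 ± 295 and 506 ± 109 CPM for Cox8a, and 642 ± 116 and 264 ± 63.2 CPM for Atp5d. In order, the group means of Cox6a1 were PparA high-fat 217, WT control 236, PparA control 281, PparDA control 281, PparDA high-fat 312, PparD control 353, WT high-fat 376 and PparD high-fat 441 CPM. Each neighbouring pair in this order differs by less than the larger of its 2 SDs.

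**Figure D3:**
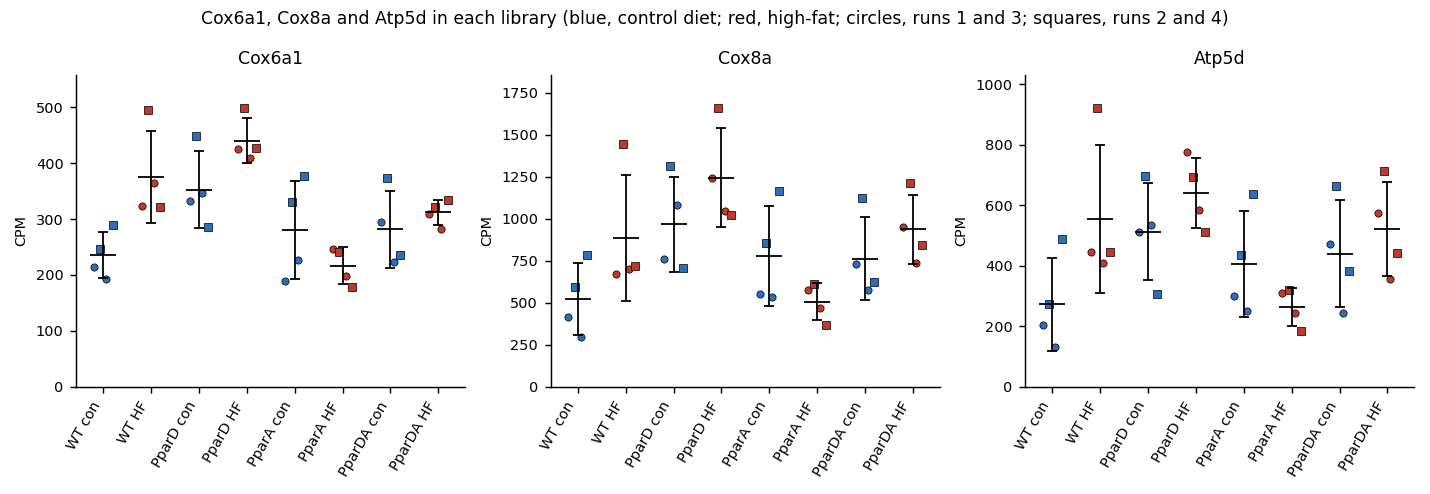
CPM of Cox6a1, Cox8a and Atp5d (vertical axes, from 0) in each library by group, with the mean and SD of 4 libraries; circles mark runs 1 and 3, squares runs 2 and 4. The same libraries are high in the 3 panels, for example library 10 in WT high-fat (495, 1445 and 922 CPM), and the 4 PparA high-fat libraries are low in each.

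Across the 32 libraries Cox6a1 and Cox8a had a Pearson r of 0.92 and a Spearman rho of 0.91 on log2(CPM + 1), Cox6a1 and Atp5d 0.90 and 0.89, and Cox8a and Atp5d 0.96 and 0.96. After group means were removed r was 0.91, 0.86 and 0.94, and without the 2 libraries farthest from the median 0.92, 0.90 and 0.96. The genes were chosen after their values were seen and share libraries and depth, so no p is given. Of the tested genes outside the members, Coq6, an enzyme of ubiquinone synthesis, came next to Cox6a1 (r = 0.89), then Bzw2 (0.88), Txn1 and Ftl1 (0.87 each), Exosc6 (0.86), Hsd17b11 (0.84) and, at 0.83, Ecd, Nme2 and the mitochondrially encoded mt-Nd3. Of the other 87 members 29.9% had an r over 0.5 with Cox6a1, against 5.25% of all tested genes.

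Other measures of a library moved with these 3 genes. For Cox6a1 r was 0.73 with the library total, −0.72 with Malat1, 0.60 with the summed ribosomal protein genes, −0.64 with the summed mitochondrially encoded genes and 0.56 with the summed stem cell markers. With the Paneth and enterocyte marker sums it was −0.01 and 0.04. For Atp5d the values were 0.60, −0.70, 0.70, −0.66 and 0.63 in the same order. The part of depth, RNA quality or ribosomal genes in the pattern was not tested.

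Whether the diet effect differed between genotypes was tested as an interaction. Of the 88 members 0 were called for PparD minus WT (0.0511% of all genes), 0 for PparA minus WT (0.153%) and 0 for PparDA minus WT (0% of all), with 1, 13 and 4 members at an unadjusted p under 0.05 (1.14% against 3.61% of all genes, 14.8% against 8.19% and 4.55% against 5.77%). DESeq2 and limma called 0 as well, but without a filter on low counts edgeR called 3 members for PparA minus WT (Atp5d, Cox8a and Cox6a1) and 1 for PparDA minus WT (Atp5d). The smallest p for PparA minus WT were those of Cox6a1 (−1.04 ± 0.27, adjusted p = 0.2), Atp5d (−1.64 ± 0.49, 0.36) and Cox8a (−1.38 ± 0.42, 0.36) by edgeR, followed by Sdhc, the membrane anchor of complex II (−0.36 ± 0.12, 0.43). For Cox6a1 runs 1 and 3 alone gave −0.66 ± 0.24, and the other 2 runs −1.37 ± 0.37. Without PparA control library 5 edgeR called Cox6a1 here, as it did with the run as a replicate block. For the fits without the filter, without library 5 and with the block, shares of all genes called are not given here. Their calls therefore have no background.

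Against WT on the control diet, 0 members were called in PparD (0.204% of all genes), 0 in PparA (0.562%) and 0 in PparDA (1.87%). At an unadjusted p under 0.05 stood 7, 3 and 8 members in that order. As shares, these were 7.95% of the members against 7.71% of all genes, 3.41% against 8.89% and 9.09% against 13.8%. DESeq2 called 0 in each, and limma 1 in PparDA. Within runs 1 and 3 edgeR called Cox8a and Atp5d higher in PparD than in WT. Shares of all genes called by limma and within these runs are not given here, so such calls have no background. Members higher than in WT numbered 40 in PparD, 48 in PparA and 29 in PparDA (36, 37 and 23 with library totals). Without libraries 23, 27 and 31 those for PparD and PparDA were 48 and 52.

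On the high-fat diet 1 member was called: Cox6a1 was lower in PparA than in WT, where 0.749% of all genes were called. Its 4 values in PparA (247, 241, 199 and 179 CPM) lay below the 4 in WT (323, 495, 364 and 321 CPM). The log2 fold change was −0.79 ± 0.19 (edgeR adjusted p = 0.039). In runs 1 and 3 alone it was −0.63 ± 0.17 (0.28), and in runs 2 and 4 alone −0.96 ± 0.26 (0.084). Leaving out library 10, 14, 18, 22 or 30 ended the call (adjusted p = 0.058 to 0.19), as did fitting the 2 groups alone (0.11). Atp5d (−1.07 ± 0.35) and Cox8a (−0.80 ± 0.30) were lower too without passing (0.17 and 0.25). Library totals were also lower in PparA high-fat (636955 to 680869 counts) than in WT high-fat (676940 to 724155 counts), with a small overlap. The part of depth in these differences was not tested. In PparD 0 members were called (0.017% of all genes) and in PparDA 0 (1.57% of all), and DESeq2 and limma called 0 in both. At an unadjusted p under 0.05 stood 0 members in PparD (0% against 3.78% of all genes) and 7 in PparDA (7.95% against 13.6%). Cyc1 was at 158, 118, 113 and 127 CPM in PparDA against 66.1, 85.9, 85 and 89.4 CPM in WT high-fat, without overlap (0.66 ± 0.21, edgeR adjusted p = 0.11).

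Averaged over diet and the Ppard allele, the 16 Ppara-null libraries differed from the other 16 in 6 members, of which 5 are described here. Cox6a1, Cox6b2, Sdhd and Sdha were lower and Cox7a1 was higher. Cox6b2 reached the 10 CPM limit through the libraries without the allele (mean 13.1 CPM, against 7.55 CPM with it), so its lower value is tied to how it was chosen and supports nothing. The 6 are 6.82% of the members, where 7.58% of all tested genes were called, so the share was near the background. The other 82 did not pass, and for 84 of 88 members the interval of 2 SE lay within 1.5-fold. Of the 88 members 29 were higher (median −0.03), or 15 with library totals (median −0.06). All 4 complex II members were lower (median −0.13, and −0.16 with library totals).

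In complex II, Sdha, the flavoprotein that oxidises succinate, ranged from 267 to 472 CPM (median 371) in Ppara-null libraries and from 339 to 496 CPM (median 443) in the others. Sdhd, a membrane anchor, ranged from 563 to 786 CPM (median 722) and from 720 to 950 CPM (median 773). For both, 15 of 16 Ppara-null libraries lay below the median of the others, yet the ranges overlapped. The log2 fold changes were −0.21 ± 0.06 for Sdha and −0.15 ± 0.05 for Sdhd (edgeR adjusted p = 0.035 and 0.031). In runs 1 and 3, then 2 and 4, they were −0.23 ± 0.08 and −0.19 ± 0.10 for Sdha, and −0.15 ± 0.06 and −0.15 ± 0.08 for Sdhd, none passing there (0.27 to 0.37). Neither was called without a filter on low counts, at 0.086 and 0.29. Sdha lost its call when any 1 of 15 libraries was left out (1, 2, 5, 7, 8, 14, 19, 20, 23, 25, 26, 27, 28, 30 or 31) and Sdhd when any 1 of 10 was (1, 2, 8, 13, 14, 16, 19, 29, 30 or 31). The iron-sulfur subunit Sdhb (−0.11 ± 0.06) and Sdhc (−0.01 ± 0.04) did not pass (0.35 and 0.96).

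In complex IV 3 accessory subunits moved in both directions. Cox6a1 ranged from 179 to 377 CPM (median 265) in Ppara-null and from 192 to 499 CPM (median 340) in the other libraries, a log2 fold change of −0.34 ± 0.09 (edgeR adjusted p = 0.02). It was −0.37 ± 0.09 in runs 1 and 3 alone (0.055) and −0.33 ± 0.13 in the other 2 runs (0.18). Library totals, with which Cox6a1 varied, ran from 612672 to 695583 counts in Ppara-null and from 629464 to 724155 in the other libraries. The part of depth in this call was not tested. Cox7a1 ranged from 23.5 to 83.4 CPM (median 41.2) against 18.7 to 41.7 CPM (median 30.9), a log2 fold change of 0.59 ± 0.15 (0.013). It had 14 to 54 counts in a library. Its 2 highest libraries were 13 and 14 of PparA, at 83.4 and 79.1 CPM, and both belong to run 2. Runs 1 and 3 alone gave 0.33 ± 0.16 (0.49), and the other 2 runs 0.73 ± 0.16 (0.012). Cox6b2, whose choice depended on the libraries without the allele, had 1 to 17 counts in a library and ranged from 1.43 to 15.5 CPM (median 7.91) against 5.82 to 25.2 CPM (median 11.4), a log2 fold change of −0.80 ± 0.24 (0.035), with −0.70 ± 0.34 and −0.94 ± 0.30 within the pairs of runs (0.5 and 0.086). It lost its call when any 1 of 15 libraries was left out (1, 4, 7, 8, 10, 11, 13, 16, 17, 19, 20, 21, 29, 30 or 32).

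**Figure D4:**
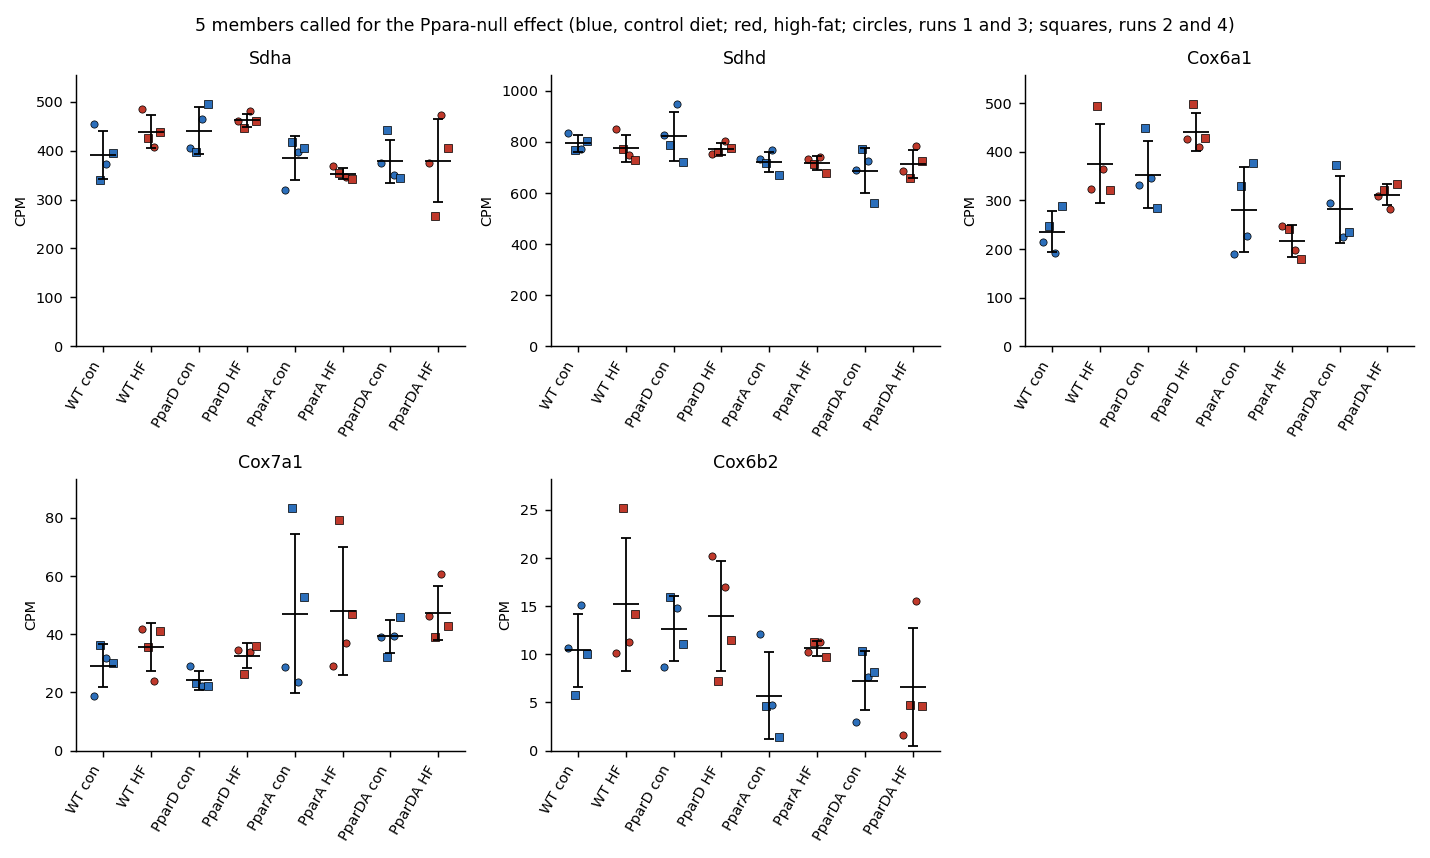
CPM of 5 members called for the Ppara-null effect (vertical axes, from 0) in each library by group, with the mean and SD of 4 libraries; circles mark runs 1 and 3, squares runs 2 and 4. The ranges of all 5 overlap between genotypes, and the highest Cox7a1 points are PparA libraries 13 and 14 (83.4 and 79.1 CPM).

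Without libraries 23, 27 and 31 edgeR called 2 members for the Ppara-null effect, Sdhd among them, with no share of all genes given here. Cox7a1 then had an adjusted p of 0.066 and Cox6a1 of 0.063. Several marker sums differed in median between Ppara-null and other libraries, with overlapping ranges. The 10 enterocyte markers summed to 1163 to 4180 CPM (median 2036) in Ppara-null and 1108 to 1787 CPM (median 1427) in the other libraries. The 10 Paneth markers summed to 2878 to 40500 CPM (median 12427) against 2058 to 42967 CPM (median 6246), and the 10 stem cell markers to 9873 to 14250 CPM (median 10955) against 8176 to 14117 CPM (median 12091). Lymphocyte markers, near the floor of counts, summed to 0 to 12.4 CPM (median 4.63) against 0 to 6.96 CPM (median 0.716). Red blood cell markers had a median of 0 in both. None of the markers of stem, Paneth, goblet or enterocyte cells was at 0 in all libraries, while 1 of 8 lymphocyte markers was, as were Hba-a1 and Alas2 among 5 of red blood cells and Col3a1 and Pdgfra among 7 of stroma and endothelium. The part of these cells in the calls was not tested.

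**Figure D5:**
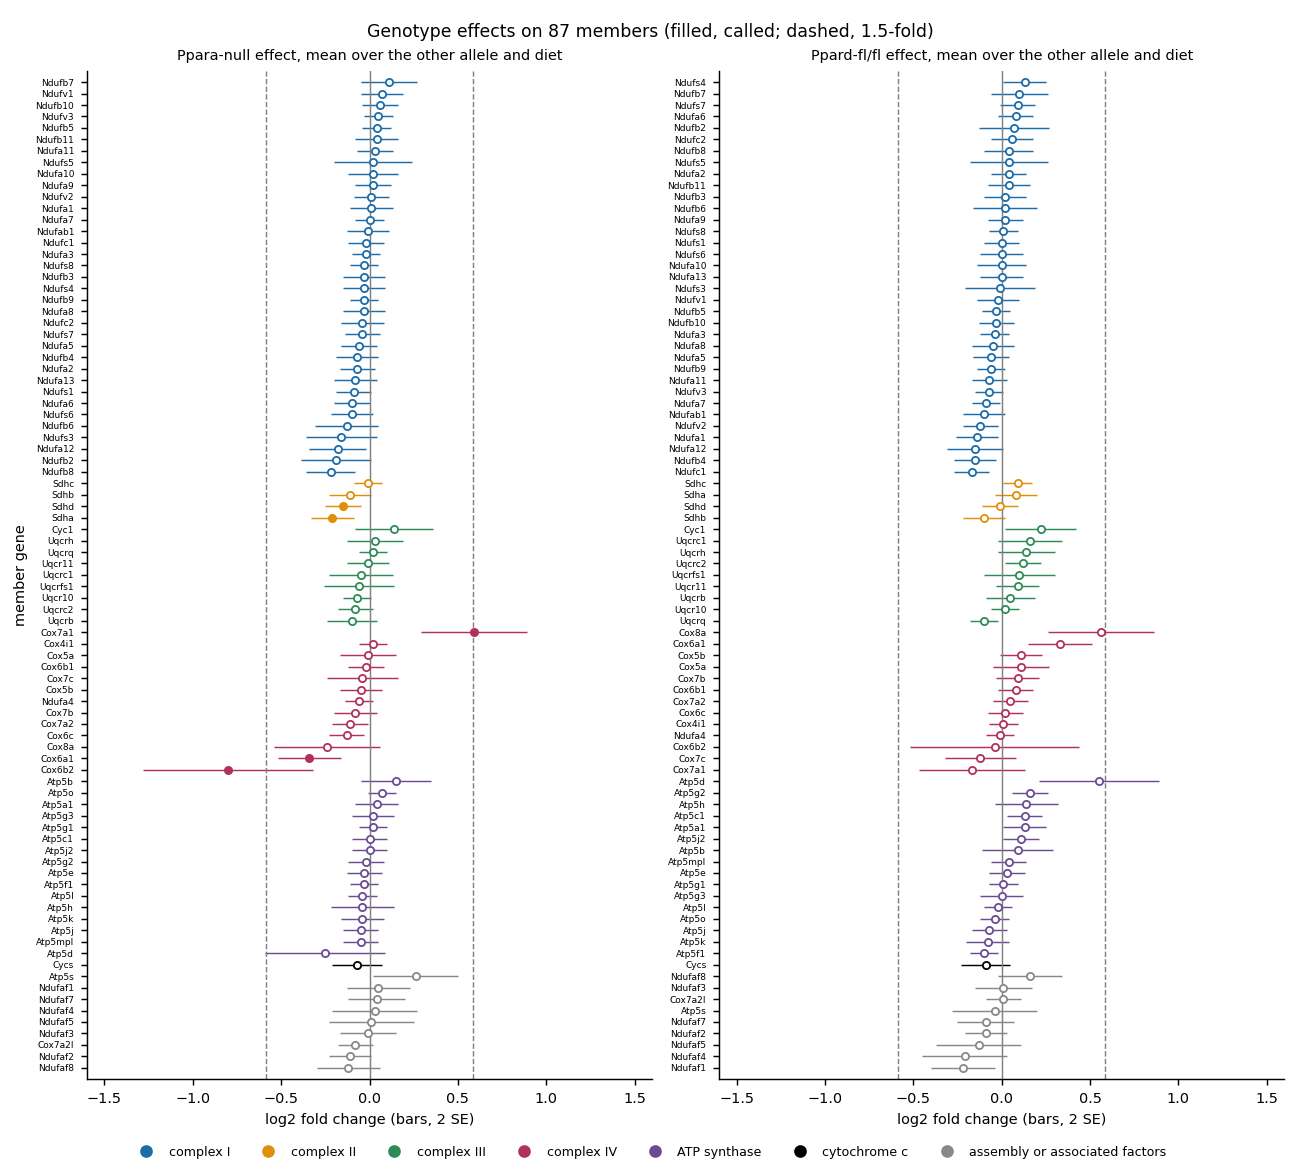
Log2 fold change (horizontal axes, with bars of 2 SE) of 87 members for the Ppara-null effect and the Ppard-fl/fl effect, each averaged over diet and the other allele, grouped by complex; filled points were called and dashed lines mark 1.5-fold. On the left 5 points are filled, from −0.80 for Cox6b2 to 0.59 for Cox7a1, and on the right none.

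For the Ppard-fl/fl allele, averaged over diet and the Ppara allele, edgeR called 0 members, where 0.954% of all genes were called, and 18 members stood at an unadjusted p under 0.05 (20.5% against 12.3% of all genes). The smallest p belonged to Cox8a, which ranged from 573 to 1659 CPM (median 986) in the 16 Ppard-fl/fl libraries and from 295 to 1445 CPM (median 601) in the others (0.56 ± 0.15, adjusted p = 0.055). Cox6a1 (0.33 ± 0.09, 0.069), Ndufc1, an accessory subunit of complex I (−0.17 ± 0.05, 0.11), and Atp5d (0.55 ± 0.17, 0.12) followed. Enterocyte markers summed to a median of 1705 CPM (1108 to 3015) with this allele and 1412 CPM (1163 to 4180) without it, and their part was not tested. The count of 0 members called depended on the fit. DESeq2 called 3 (Cox8a, Cox6a1 and Ndufc1) and limma 2 (Cox8a and Cox6a1). In runs 1 and 3 alone edgeR called 3 (Cox8a, Atp5d and Cox6a1), and in the other 2 runs 0. With the run as a replicate block it called 4 (Cox8a, Cox6a1, Atp5d and Ndufc1). Without libraries 23, 27 and 31 it called 5 (Cox6a1, Cox8a, Atp5g2, Atp5j2 and Atp5d). Without any 1 of libraries 10, 23, 24, 26, 27 or 29 it called 1 to 4. Shares of all genes called in these other fits are not given here, so the counts cannot be set against a background.

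Any difference among the 8 groups was called for 3 members, or 3.41%, where 4.34% of all tested genes were called, among them Cox6a1 (edgeR adjusted p = 0.0047) and Cox8a (0.045). In runs 1 and 3 alone the same test gave 0.015 and 0.0058 in that order, and in runs 2 and 4 alone 0.24 and 0.46. Cox6a1 was called with each single library left out, while Cox8a was lost in 19 of 32 such fits, and the count fell to 1 in 12 of them. At an unadjusted p under 0.05 stood 14 members (15.9%, against 17.3% of all genes). With the run as a replicate block edgeR called 7 members for any difference. Shares of all genes called in these other fits are not given here, so their counts have no background.

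Between runs, a few members differed in every group. Cox7c, a small complex IV subunit, was highest in run 1 and lowest in run 4 in 8 of 8 groups, with means of 1289, 1044, 933 and 799 CPM in runs 1 to 4. Cox6c, another complex IV subunit, was highest in run 1 in 8 of 8 groups. In runs 1 and 3, where Xist was present, 6 members were higher in 8 of 8 groups (Ndufa7, Sdhd, Cox6c, Atp5j, Ndufb11 and Cox7c), and Ndufa3 was lower in 8 of 8. Of the 3 X-linked members Ndufb11 stood at 543 ± 53.2 CPM in runs 1 and 3 and 476 ± 41.2 CPM in runs 2 and 4 (SD, n = 16). The other X-linked members, Ndufa1 (1015 and 982 CPM) and Cox7b (962 and 933 CPM), were higher in 5 of 8 groups. Sex markers and run cannot be told apart beyond these pairs, and no test was made. The share of all genes with 1 direction in 8 of 8 groups is not given here, so these counts have no background.

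Other genes of the pathway were taken from 8 lists with 89 genes, of which 68 were tested. None of the listed assembly factors of complexes I, II, III and IV outside the rule was called in any of the 17 comparisons (6, 3, 6 and 16 tested). Of 6 tested regulators of mitochondrial biogenesis 0 were called as well. Between 0 and 7.58% of all tested genes were called in a comparison, so 0 calls in such short lists say little about them. Among 7 tested genes that deliver electrons from fatty acids and other dehydrogenases, Etfb, a subunit of electron transfer flavoprotein, was higher on the high-fat diet averaged over genotypes (0.30 ± 0.06, edgeR adjusted p = 0.013; 0.22 ± 0.09 in runs 1 and 3, 0.45, and 0.39 ± 0.09 in the others, 0.23). Its adjusted p was 0.066 without libraries 23, 27 and 31. In WT it stood at 363, 291, 322 and 325 CPM under control feeding and 395, 456, 436 and 470 CPM under high-fat feeding, without overlap. Of the 7 tested genes of this list 3 were higher on the high-fat diet averaged over genotypes, with a median of −0.01. Etfb was the 1 gene of the 7 called for this effect, where 0.324% of all tested genes were. Gpd2, the glycerol phosphate dehydrogenase of the inner membrane, was lower with the Ppara-null allele (−0.38 ± 0.11, 0.034). It was the 1 gene of the 7 called for this allele, where 7.58% of all tested genes were. Runs 1 and 3 alone gave −0.26 ± 0.16 (0.65), the other 2 runs −0.48 ± 0.13 (0.043), and the fit without libraries 23, 27 and 31 −0.33 ± 0.12 (0.14). Among 11 tested carriers and ATP synthase assembly genes 1 was called for the Ppara-null allele, against the same 7.58% of all genes. This was Vdac2, an outer membrane channel, which was lower (−0.26 ± 0.07, 0.02). Runs 1 and 3 gave −0.21 ± 0.13 (0.63) and the others −0.32 ± 0.09 (0.052).

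Of 13 tested mitochondrially encoded subunits, 3 rose with the Ppara-null allele and 10 did not pass. The 3 are 23.1% of the list, against 7.58% of all tested genes called. Values were above 0 for 11 of 13 (49.6% of all genes), with a median of 0.18, or 0.15 with library totals. The 3 called were mt-Nd2 (0.27 ± 0.05, adjusted p = 0.0014), mt-Nd5 (0.25 ± 0.06, 0.0093), both of complex I, and mt-Co2 of complex IV (0.13 ± 0.04, 0.028), by edgeR. In runs 1 and 3, then 2 and 4, they were 0.28 ± 0.09 and 0.26 ± 0.08 for mt-Nd2 (0.21 and 0.087), 0.26 ± 0.10 and 0.26 ± 0.09 for mt-Nd5 (0.37 and 0.11) and 0.14 ± 0.05 and 0.13 ± 0.06 for mt-Co2 (0.27 and 0.34). With library totals mt-Co2 was not called (0.066), and without a filter on low counts neither mt-Nd5 (0.06) nor mt-Co2 (0.36) was. The 4 group means of mt-Nd2 with the allele were 1923 ± 98.3 and 1860 ± 201 CPM in PparA (control and high-fat) and 1969 ± 223 and 2049 ± 411 CPM in PparDA. Without it they were 1626 ± 118 and 1679 ± 71.6 CPM in WT and 1587 ± 157 and 1587 ± 89.1 CPM in PparD. For the Ppard-fl/fl allele mt-Nd3 (0.42 ± 0.10, 0.028) and mt-Nd4 (0.17 ± 0.04, 0.046) were higher, and mt-Nd4 was also higher in PparDA than in WT on the control diet (0.34 ± 0.09, 0.032). For mt-Nd3 runs 1 and 3 gave 0.63 ± 0.12 (0.013) and the others 0.25 ± 0.11 (0.51). For mt-Nd4 they gave 0.18 ± 0.06 and 0.18 ± 0.07 for the allele (0.15 and 0.5), and 0.43 ± 0.11 and 0.28 ± 0.15 for PparDA (0.13 and 0.59). mt-Nd4 was called in neither without libraries 23, 27 and 31 (0.12 and 0.22). The lists were chosen with results of these data known and get no test of their own.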

How the data were processed

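The authors deposited expected counts (estimated counts per gene, rounded to whole numbers here) and log2(CPM + 1) values, the latter used only as an alternative. Per the submitters' processing notes, mm10, R 4.0.2, edgeR 3.30.2 and Salmon 1.1.0 were used, without their roles. Library preparation was high-throughput 3' DGE, per the labels' protocols, and use of molecular identifiers is not given in the sources used here. Identifiers were matched to GENCODE M21 (GRCm38), 54096 of 54418 with success. edgeR 4.0.16 in R 4.3.3 kept genes by filterByExpr (minimum count 10, minimum total 15), which left 5872 genes with 97.1 to 97.7% of the counts, scaled by TMM (0.938 to 1.07) and fitted 1 coefficient per group over 32 libraries. The 17 two-sided quasi-likelihood tests were adjusted by Benjamini-Hochberg within each comparison, and CPM use the TMM factors. The script was tested on simulated data. Alternatives were no filter, RLE factors, library totals, a robust prior, a run block, runs 1 and 3 or 2 and 4 alone, 2 groups alone, each library left out, limma 3.58.1 on the deposited log2 values and DESeq2 1.42.0. Leaving out libraries 23, 27 and 31 was chosen after seeing the data. For these alternatives the share of all genes called is not given, so their counts of members called have no background.

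The members and lists were chosen with earlier results of these data known. Genes named were members called in a comparison (at most 6 by p), the 2 highest and the 2 with the smallest p in each complex, tissue forms, genes beside the 10 CPM limit and called genes of other lists. Others named, such as Atp5d, Cyc1, Ndufb10, Ndufc1 and Cox7c, were chosen after their values were seen. Titles number replicates, but columns carry library numbers without them, so libraries were not paired in the main fit. Intervals of 2 SE and counts cover the spread between these libraries, and counting error limits genes such as Cox6b2. Results on some items are not reported here.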

Additional observations from a re-analysis of the deposited data

Results flagged for a closer look

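In groups of 4 libraries, 1 value lay far from the other 3 in 14 of 256 sets of member levels and complex sums examined, where chance alone would give about 12.8 (1 in 20). Library 27 of PparD control lay low for Uqcrh (533 CPM), Uqcrq (2040 CPM) and the sums of complex III (6142 CPM) and complex IV (11068 CPM). Library 23 of PparDA control lay low for Uqcr11 (433 CPM). Library 4 of PparD high-fat lay low for Atp5g1 (2235 CPM) and Cycs (606 CPM), and library 8 of PparDA high-fat low for Atp5g1 (2279 CPM). Library 10 of WT high-fat lay high for Cox8a (1445 CPM), library 3 of PparD control high for Cox7a1 (29 CPM) and library 15 of PparDA control high for Ndufa3 (1487 CPM). Library 26 of WT control lay high for Ndufb8 (231 CPM) and library 6 of PparA high-fat high for Sdhc (334 CPM). Library 20 of PparD high-fat lay low for the summed assembly and associated factors (945 CPM). No member passed an interaction test between genotypes in the edgeR fit over all 32 libraries with the low-count filter and no run block.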

How the results depend on the processing

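No reported direction reversed for a called member. Shares of all genes called in each fit are not given here, so the counts below cannot be set against a background. Counts of members called changed as follows. Without the low-count filter they were 3 for diet in WT, 2 for diet in PparA, 3 and 1 for the PparA and PparDA interactions, 3, 2 and 2 for PparD, PparA and PparDA against WT on the control diet, 3 for PparA on the high-fat diet, 3 for Ppard-fl/fl and 6 for any difference. Library numbers and not labels define the runs. Of 32 libraries 31 correlated best with a library of their own run, with a median r of 0.155 within and −0.074 between runs. Of 112 same-run pairs 87 had r over 0.1 (lowest −0.029). The labels do not name the runs, so the main fit has no run term, and its spread includes differences between runs. With the run as a replicate block the counts were 1 for the PparA interaction (Cox6a1), 2 and 1 for PparDA against WT on the control and high-fat diet, 4 for Ppard-fl/fl and 7 for any difference. Within runs 1 and 3 they were 2 for PparD on the control diet, 0 for PparA on the high-fat diet, 0 for Ppara-null and 3 for Ppard-fl/fl; within runs 2 and 4, 0 for PparA on the high-fat diet, 3 for Ppara-null and 0 for any difference. With only the groups compared they were 0 for PparA and 1 (Cyc1) for PparDA on the high-fat diet. For Ppara-null the 6 calls became 9 with limma, 8 with the block or library totals and 7 with a robust prior. limma gave 1 for PparDA on the control diet, 2 for Ppard-fl/fl and 5 for any difference, DESeq2 3 and 5 for the last 2, and library totals 1 for Ppard-fl/fl. Without libraries 23, 27 and 31 there were 2 for Ppara-null and 5 for Ppard-fl/fl. With each library left out counts ran from 0 to 1 for the PparA interaction and for PparA on the high-fat diet, 3 to 7 for Ppara-null, 0 to 4 for Ppard-fl/fl and 1 to 5 for any difference. The cause of these changes was not tested, except that the subsets hold fewer samples. Summed CPM with library totals or the deposited values (in that order) moved by over 1 SD in complex I (WT control 19249 and 19248, WT high-fat 18053 and 18052, PparA high-fat 17644 and 17643), complex III (WT control 7501 and 7500), ATP synthase (WT control 20208 in both, PparDA high-fat 19907 in both), the factors (WT control 1008 in both, PparDA high-fat 902 and 901) and all members (WT control 64414 and 64412, PparDA high-fat 61142 and 61140). Fitting only the groups compared gives nothing separate for the averaged effects and for any difference, which use all 8 groups.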
